A study of Mus musculus with 8 samples.

Results

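This account describes 33 genes of fatty acid oxidation and the peroxisome in Hepa1-6 cells, a mouse hepatoma line labelled as C57BL/6. The members were given as a list of symbols: the receptor gene Ppara, the carnitine shuttle, mitochondrial and peroxisomal beta-oxidation with its auxiliary enzymes, electron transfer, ABCD transporters and peroxins. All 33 were found among the 54446 genes of the count table and in the TPM table, and all 33 were among the 15613 genes that passed the filter on low counts. The cells were measured by bulk mRNA sequencing in 4 groups of 2 libraries: untreated control, trimethylamine N-oxide (TMAO) at 50 µM, the cytokine TNF-α at 50 ng/ml, and both agents at those doses, with 24 h of exposure. All groups were the same line in medium with fetal bovine serum. Sample titles set the groups, since 1 label field of the combined group lists TMAO in the place of TNF-α as well. Libraries are numbered 14 and 16 within each group. No label states whether separate cultures were used, so every p-value here reflects the spread between libraries only, and that spread may be technical.

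Fatty acids are broken down in mitochondria and in peroxisomes. Long chains enter mitochondria as carnitine esters, are shortened in repeated rounds of dehydrogenation, hydration, dehydrogenation and thiolysis, and pass electrons through the electron transfer flavoprotein to the respiratory chain. Very long and branched chains enter peroxisomes through ABC transporters of subfamily D, are shortened there, and leave as carnitine esters or free acids. The nuclear receptor PPARα, encoded by Ppara, is the main activator of this programme in hepatocytes, where the pathway is known for feeding ketone body synthesis in fasting. Peroxins import proteins into peroxisomes and govern their growth and division.

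One library stood apart before any comparison of groups. Over 12368 expressed genes, the log2 difference between libraries 14 and 16 had a standard deviation of 0.693 within the TNF-α group and of 0.18 to 0.254 within the others, and TNF-α 16 had the lowest total (24736746 counts, against 27479922 to 30488605). Among the members, TNF-α 16 was the highest of the 8 libraries in 18 of 33 (54.5%), where the share over all genes tested was 35.2%, and the lowest in 3 (9.09%, against 34.4%). Results of the members that turn in direction or call without it are given both ways. Of 13 hepatocyte markers, 10 had a mean of at least 1 CPM, while Ttr (at most 0.169 CPM) and Apoa1 (at most 0.338 CPM) were nearly absent. The summed TPM of the hepatocyte list was 2800 to 3270 in the 4 libraries with TNF-α and 5330 to 5610 in the 4 without. In the test of TNF-α described below, 5 of its 11 tested genes were called lower, beside 3.86% of all genes. All 11 had a negative log2 change. The 5 cholangiocyte markers summed to 288 to 304 TPM with TNF-α and 393 to 420 without. Of these, 3 were called lower, and all 5 had a negative log2 change. Markers of macrophages summed to 36.8 to 44.1 with TNF-α and 36.2 to 38.4 without, with Clec4f and Adgre1 at or near 0. Of the 3 tested macrophage genes 1 fell, beside 3.86% of all genes called lower. This was Csf1r, from 6.62 to 7.81 CPM without TNF-α to 2.94 to 3.64 with it. Cd68 (7.85 to 9.12 without, 8.97 to 13.1 with) and Cd14 (15.4 to 17.6 without, 14.9 to 23.1 with) did not pass. Endothelial markers stayed below 1 TPM in sum in every library, with Lyve1 at 0 counts. The 6 stellate cell and fibroblast markers summed to 1360 to 1500 with TNF-α and 1820 to 1910 without, nearly all of it from Dcn, while Lrat, Acta2 and Col1a2 were at or near 0. Their part in the results was not tested, and fewer cells of a kind cannot be told from less RNA per cell.

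The promoters of 26 members were found in the RefSeq table of build GRCm38.p6, as windows of 300 bases from 250 before to 50 after each start (29 windows, since 2 genes have several starts). Shown are those of Ppara, the gene of the pathway's receptor, of Cpt1a, its mitochondrial entry step, and of Crot and Etfdh, the called members that the table holds. The table holds none for Abcd2, Hsd17b4, Acaa2, Pex19, Abcd4, Crat or Decr1. Each line gives the 250 bases before the start, 5′ to 3′ on the gene's strand, with capitals marking matches, on either strand, to any of the 6 motifs described after them, among them the GC box (GGGCGG), the CCAAT box (CCAAT) and the nuclear receptor hexamer (AGGTCA). Ppara lies at chr15:85735526-85735775 (plus strand), Cpt1a at chr19:3323051-3323300 (plus), Crot at chr5:8997147-8997396 (minus) and Etfdh at chr3:79628768-79629017 (minus).
Ppara: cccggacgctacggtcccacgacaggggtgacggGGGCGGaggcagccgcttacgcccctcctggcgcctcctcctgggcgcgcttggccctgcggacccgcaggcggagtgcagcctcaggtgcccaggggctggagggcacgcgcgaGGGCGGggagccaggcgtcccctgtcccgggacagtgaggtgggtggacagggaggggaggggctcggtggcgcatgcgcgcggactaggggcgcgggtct
Cpt1a: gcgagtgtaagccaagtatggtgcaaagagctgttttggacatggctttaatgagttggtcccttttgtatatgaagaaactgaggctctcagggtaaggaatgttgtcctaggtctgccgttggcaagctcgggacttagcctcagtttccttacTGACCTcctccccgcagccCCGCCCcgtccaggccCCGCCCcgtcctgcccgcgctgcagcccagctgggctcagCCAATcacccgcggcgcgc
Crot: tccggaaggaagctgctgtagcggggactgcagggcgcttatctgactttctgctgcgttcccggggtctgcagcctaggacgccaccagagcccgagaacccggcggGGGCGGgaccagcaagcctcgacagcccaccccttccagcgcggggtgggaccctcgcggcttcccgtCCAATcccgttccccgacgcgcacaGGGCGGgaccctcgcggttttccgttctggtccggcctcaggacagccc
Etfdh: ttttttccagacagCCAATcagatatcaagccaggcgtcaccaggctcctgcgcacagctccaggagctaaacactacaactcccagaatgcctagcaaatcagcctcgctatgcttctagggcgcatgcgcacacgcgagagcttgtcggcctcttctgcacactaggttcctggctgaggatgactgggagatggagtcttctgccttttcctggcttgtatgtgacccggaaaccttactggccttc

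A GC box was present in 23 of the 29 member windows (79.3%), in 46.2% of 21263 windows of protein-coding genes and in 35.7% of all 32851 windows of the table. A CCAAT box was present in 12 (41.4%, against 38.2% and 37.4%). The hexamer bound by nuclear receptors was present in 4 windows (13.8%, against 14.7% and 16.3%), those of Cpt1a, Acadvl, Acadm and Echs1, and in Cpt1a it was read on the opposite strand, starting 94 bases before the start. The direct repeat of that hexamer with 1 base between (DR1), the textbook form of a PPAR site, was in 0 of 29 member windows and in 0.0396% of all windows. The NF-κB motif was in 3 windows (10.3%, against 9.25% and 8.46%), those of Etfa, Decr2 and Abcd3. The estrogen-related receptor form (TCAAGGTCA), which contains the hexamer, was in 0 of 29 and in 0.423% of all windows. These are matches of letters in a short window and describe no binding.

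The levels of the members per transcript length differed widely, as the plot of TPM by gene shows. Acadl, the dehydrogenase of long chains, was the highest member at 162 to 188 TPM over the 8 libraries. Etfb stood at 74.1 to 128 TPM, although its counts were low, as described below. Echs1, an enoyl-CoA hydratase, stood at 62.1 to 110 TPM, and Hadh, a hydroxyacyl-CoA dehydrogenase, at 72.1 to 95.6. The peroxisomal bifunctional enzyme Hsd17b4 was at 74.8 to 87.9, and these ranges overlap. The order below Acadl depends on how TPM were computed. From the counts, the mean was 32.9 TPM for Echs1, 53.1 for Hadh, 104 for Hsd17b4 and 279 for Acadl. Cpt1a, which commits long chains to mitochondrial entry, was at 39.7 to 47.9 TPM in 7 libraries and at 21.8 in TNF-α 16. At the low end were Abcd4 (4.22 to 6.56), Abcd2 (0.550 to 5.52), the peroxisomal bifunctional enzyme Ehhadh (1.95 to 2.66) and Ppara (0.137 to 0.576). Summed by role in control cells, the 9 enzymes of mitochondrial beta-oxidation reached 654 and 693 TPM, the 5 of peroxisomal beta-oxidation 130 and 139, and the 3 ABCD transporters 31.2 and 37.9.

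**Figure D1:**
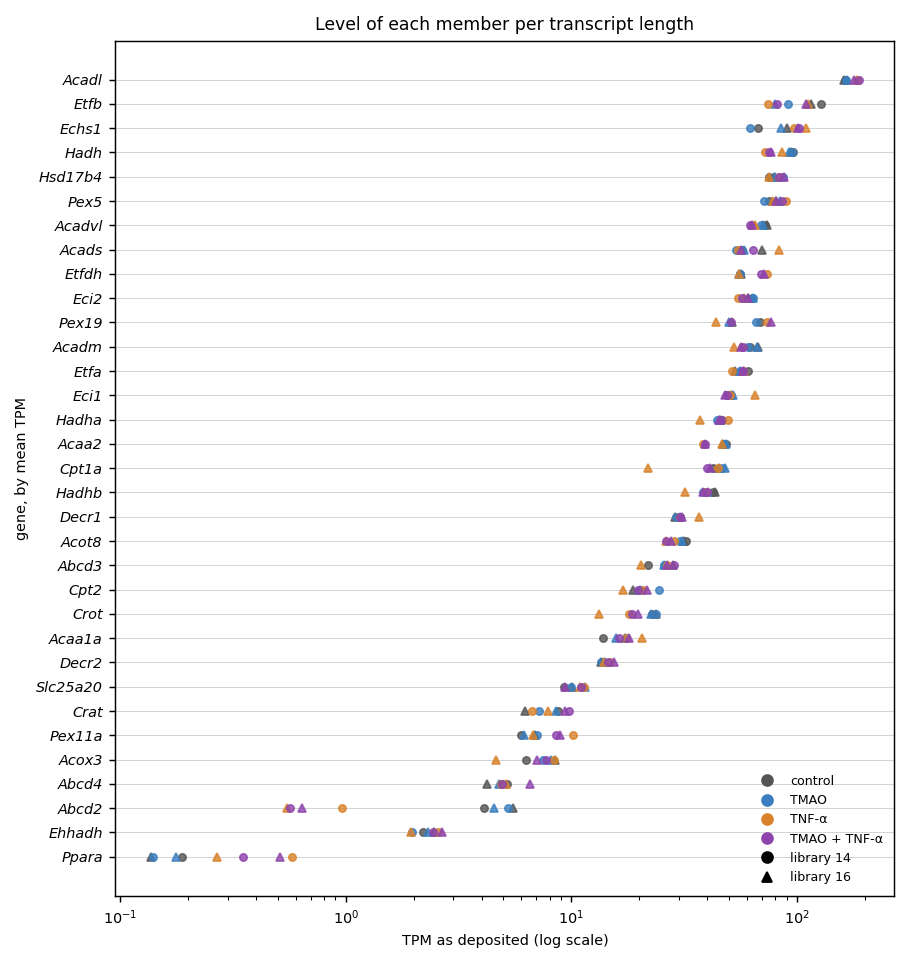
Deposited TPM (log axis) of each of the 33 members in the 8 libraries, with genes ordered by mean TPM, colours for the 4 groups and shapes for libraries 14 and 16. Acadl lies highest at 162 to 188 TPM, Ppara lowest below 1 TPM, and Abcd2 is the member whose libraries with TNF-α separate from the others by the widest gap.

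The effect of TNF-α was tested on counts over all genes, as the average difference between the 4 libraries with TNF-α and the 4 without (edgeR's quasi-likelihood test, Benjamini-Hochberg adjustment over 15613 genes, calls at 0.05). Of 33 members 2 fell, Abcd2 and Crot, and 1 rose, Etfdh. That is 9.09% of the members, next to 9.2% of all genes tested, so the members as a group were not called more often than other genes. In each direction the background was 5.35% higher and 3.86% lower. At an unadjusted p under 0.05 there were 7 members, beside 20.4% of all genes. The median log2 fold change of the members was 0.043 (21 positive, 12 negative), beside 0.0032 over all genes. Without TNF-α 16 it turned to -0.031, with 14 positive and 19 negative. The sign of 7 members turned in that fit (Acads, Hadha, Etfa, Etfb, Eci1, Decr1, Acaa1a), and without TNF-α 14 that of 4 (Crat, Eci2, Acox3, Abcd3). For 31 of 33 members the 95% interval of the change lay within 2-fold in either direction, the exceptions being Ppara and Abcd2. For 28 it lay within 1.5-fold.

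**Figure D2:**
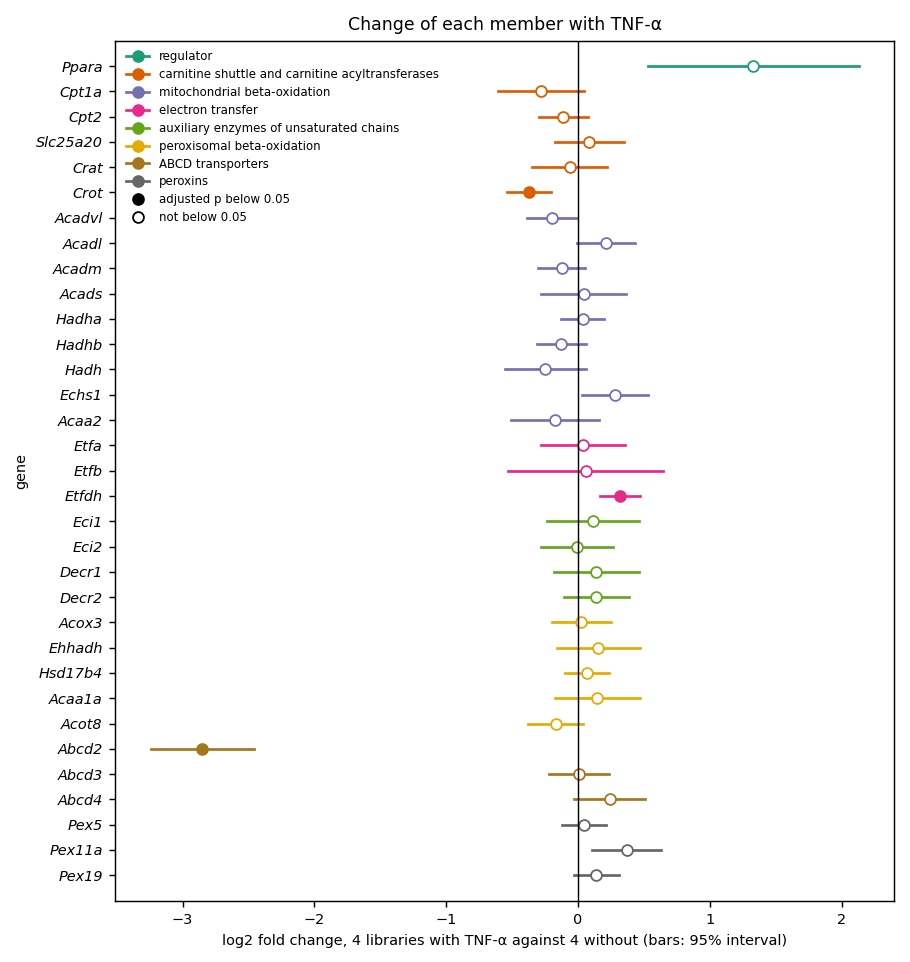
Log2 fold change of each member, 4 libraries with TNF-α against 4 without, with bars for the 95% interval, colours for the role and filled points for an adjusted p below 0.05. Abcd2 lies far to the left at -2.85, Crot (-0.37) and Etfdh (0.32) are the other filled points, and most other intervals cross 0.

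Abcd2 encodes a peroxisomal ABC transporter of very long chain and polyunsaturated acyl-CoA. Abcd2 (ENSMUSG00000055782.9) stood at 10.3 and 13.1 CPM in the control libraries, 12.1 and 11.7 with TMAO, 2.22 and 1.49 with TNF-α, and 1.58 and 1.28 with both agents. The 4 libraries with TNF-α were all far below the 4 without, and the groups with and without TMAO lay close together. These levels rest on 36 to 67 counts a library with TNF-α and 306 to 379 without. Abcd2 fell 7.21-fold, a log2 change of -2.85 ± 0.17 (SE; edgeR's adjusted p = 0.000181). Abcd2 was the 1 member of 33 called, lower, in each comparison of a single group with TNF-α: TNF-α against control (-2.64 ± 0.23 (SE), edgeR adjusted p = 0.00230, with 4.05% of all genes called), both agents against control (-3.03 ± 0.24, adjusted p = 0.00151, 3.49%) and both against TMAO (-3.06 ± 0.24, adjusted p = 0.00145, 3.64%). The first and second share their control libraries, and the last and the second the combined libraries. When only the 4 libraries of control and TNF-α were fitted, its change of -2.65 had an adjusted p of 0.0949 in edgeR and was not called. In that fit 1 of 14876 genes was called. In the TPM table Abcd2 was at 4.12 to 5.52 without TNF-α and 0.550 to 0.965 with it, again without overlap.

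The other ABCD transporters did not pass. Abcd3, the abundant peroxisomal membrane transporter of long and branched chains, was at 37.0 to 44.3 CPM without TNF-α and 37.2 to 45.1 with it, an overlapping range and a log2 change of 0.01 (95% interval -0.22 to 0.24). Abcd4, which works in lysosomal cobalamin export rather than in the peroxisome, was at 5.86 to 6.89 and 6.72 to 8.40 CPM, with a change of 0.24 (-0.03 to 0.51).

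Among the 5 genes of the carnitine shuttle and the carnitine acyltransferases, 1 fell and 0 rose. Crot encodes the carnitine octanoyltransferase that handles medium chains shortened in peroxisomes. Crot (ENSMUSG00000003623.4) was at 33.5 and 33.7 CPM in control, 33.9 and 31.9 with TMAO, 25.8 and 24.4 with TNF-α, and 25.9 and 26.9 with both. Every library with TNF-α lay below every library without, and the 2 libraries of each group were close. The mean was 33.2 ± 0.923 CPM without and 25.8 ± 1.05 with TNF-α (SD, n = 4 each), a decrease of 22.5% (log2 change -0.37 ± 0.07 (SE); edgeR's adjusted p = 0.0194). The same held for TPM, at 22.5 to 23.8 without and 13.3 to 19.8 with TNF-α. Cpt1a was at 90.2 and 91.6 CPM in control, 95.2 and 97.7 with TMAO, 89.2 and 56.5 with TNF-α, and 81.5 and 81.5 with both. The 4 libraries with TNF-α lay below the 4 without, but by little outside TNF-α 16, which had the 56.5. Its log2 change of -0.28 (95% interval -0.61 to 0.05, edgeR's adjusted p = 0.333) did not pass. It was -0.14 without TNF-α 16 and -0.46 without TNF-α 14. Both fits called it lower, but they left the TNF-α group 1 library and so no spread of its own. Cpt2, the inner membrane partner, Slc25a20, the carnitine carrier, and Crat, the carnitine acetyltransferase, overlapped between the groups with log2 changes of -0.11, 0.09 and -0.06.

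Etfdh, the oxidoreductase that passes electrons from the flavoprotein to ubiquinone, was the 1 member that rose. Etfdh (ENSMUSG00000027809.14) was at 61.9 and 61.7 CPM in control, 60.9 and 61.7 with TMAO, 80.7 and 76.5 with TNF-α, and 75.4 and 74.4 with both. The 4 libraries without TNF-α were nearly equal, and all 4 with it lay higher, at 76.7 ± 2.78 against 61.5 ± 0.469 CPM (SD, n = 4 each). This was an increase of 24.6% (log2 change 0.32 ± 0.06 (SE); edgeR's adjusted p = 0.0232). In TPM the groups overlapped, because TNF-α 16 stood at 55.3 beside 55.5 to 56.2 without TNF-α, while the other 3 libraries with TNF-α were at 69.5 to 73.4. The flavoprotein subunit Etfa had a change of 0.04 (95% interval -0.28 to 0.36), and of -0.12 without TNF-α 16. The other subunit gene, Etfb, had 0.06 (-0.53 to 0.65), and -0.17 without TNF-α 16, on only 23 to 43 counts a library. Etfb was at 74.1 to 128 TPM in the deposited table, on average 29.9 times the TPM computed from its counts, where that ratio was 0.548 to 3.0 for the other 32 members. In GENCODE M21, 58.2% of its exon bases are shared on the same strand with Gm45233 and Mir7051, whose part in the low counts was not tested.

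**Figure D3:**
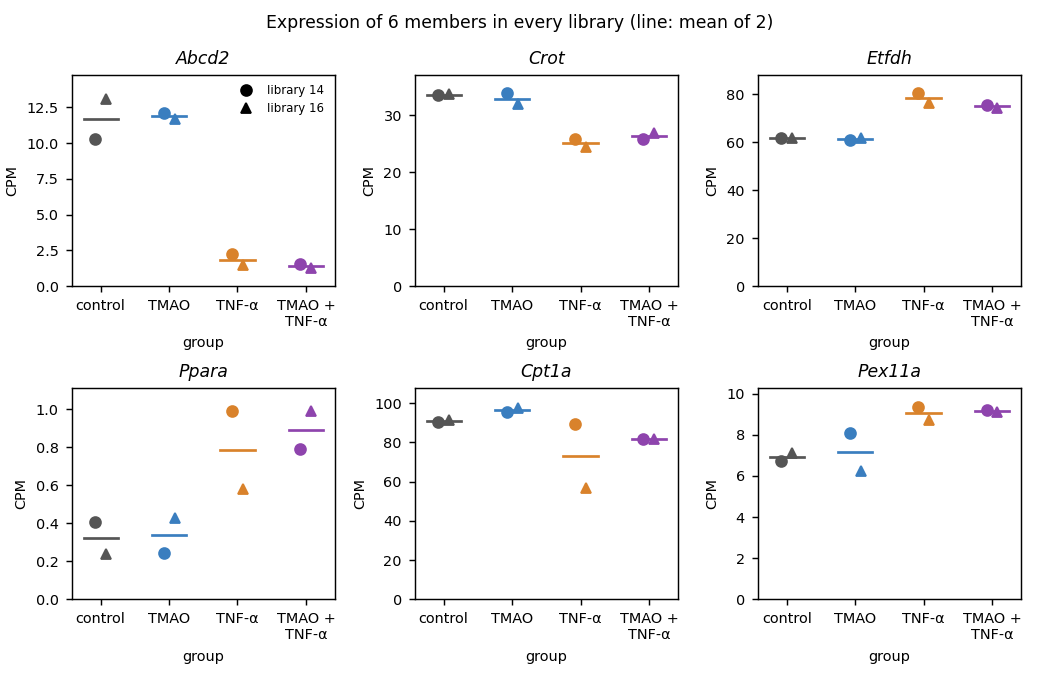
CPM (linear axis from 0) of 6 members in the 4 groups, with circles for library 14, triangles for library 16 and a line at the mean of each pair. Abcd2 and Crot are lower and Etfdh higher in all 4 libraries with TNF-α, Ppara is below 1 CPM in each library, and 1 library of the TNF-α group sets the lowest Cpt1a value of 56.5 CPM.

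The calls of Crot and Etfdh were narrow. Crot had an adjusted p of 0.101 to 0.144 and Etfdh of 0.123 to 0.149 when a single library of a group other than TNF-α was left out, with nearly the same fold change, while Abcd2 passed in every such fit. Etfdh also missed the threshold without a filter on low counts (adjusted p = 0.0762). Leaving out a TNF-α library instead took the most discordant pair out of the estimate of spread: 14 members were called without TNF-α 14 (42.4%, against 45.6% of all genes in that fit) and 13 without TNF-α 16 (39.4%, against 25%).

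Ppara itself was barely expressed. Ppara (ENSMUSG00000022383.13) had 12 and 7 counts in control, 7 and 13 with TMAO, 30 and 14 with TNF-α, and 22 and 28 with both, or 0.241 to 0.431 CPM without TNF-α and 0.579 to 0.993 with it. The groups did not overlap in CPM or in TPM, and the values with TNF-α were the higher ones. Its log2 change of 1.33 (95% interval 0.53 to 2.13) missed the threshold in edgeR (adjusted p = 0.0579) and passed in DESeq2 (1.34, adjusted p = 0.0458) and without a filter on low counts (edgeR, adjusted p = 0.0162). In edgeR it also passed without TNF-α 14 (adjusted p = 0.0374) or TNF-α 16 (0.00656), and it missed with adjusted p of 0.119 to 0.215 when any 1 of the 6 libraries of the other groups was left out.

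The 9 enzymes of mitochondrial beta-oxidation gave no call, with log2 changes from -0.25 to 0.28 and a median of -0.12. They comprise the acyl-CoA dehydrogenases for very long, long, medium and short chains (Acadvl, Acadl, Acadm, Acads), both subunits of the trifunctional protein (Hadha, Hadhb), and the hydratase, dehydrogenase and thiolase of shorter chains (Echs1, Hadh, Acaa2). Echs1 had the smallest p of these. It was at 75.4 and 74.1 CPM in control, 68.0 and 67.3 with TMAO, 78.4 and 107 with TNF-α, and 81.5 and 79.4 with both. The libraries with TNF-α were all higher than those without, but the log2 change of 0.28 (95% interval 0.03 to 0.53) had an adjusted p of 0.184 in edgeR. Acadl was also without overlap, at 146 to 154 CPM without and 156 to 206 with TNF-α.

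Within this group TNF-α 16 often lay opposite to the other libraries with TNF-α. Hadh was at 60.1 CPM in TNF-α 14 and 63.0 and 65.3 with both agents, below the 80.0 to 87.0 without TNF-α, whereas TNF-α 16 was at 91.2, the highest of all. Acaa2 was at 26.7, 28.2 and 26.9 in those 3 libraries and 33.4 to 36.5 without TNF-α, and TNF-α 16 was at 42.0. Acads reached 93.2 in TNF-α 16, above a range of 56.7 to 70.4 elsewhere. In the fit without TNF-α 16, edgeR's test called Hadh (-0.41), Acaa2 (-0.36), Acadvl (-0.25), Acadm (-0.18) and Hadhb (-0.17) lower, and Echs1 higher at 0.16. Without TNF-α 14, Echs1 (0.39), Acadl (0.29) and Acads (0.18) were called higher in this group and none lower. Between those fits the change of Acads turned from 0.18 without TNF-α 14 to -0.12 without TNF-α 16, and that of Hadha from 0.07 to -0.0016. Hadh moved from -0.11 to -0.41 and Acaa2 from -0.02 (edgeR adjusted p = 0.769) to -0.36, so the size of both changes depended on which TNF-α library was used. Control 14 deviated from its group mean in parallel with TNF-α 16 (correlation -0.636 between same-numbered libraries of the 2 groups, over 12368 genes). Without both TNF-α 16 and control 14, 15 of 33 members were called, 7 higher and 8 lower (45.5%, against 34.0% of all genes in that fit). In these fits control and TNF-α hold 1 library each, so the spread came only from the TMAO and combined pairs, the 2 pairs that differed least. Without these 2 libraries 9 members were called for TNF-α against control, 1 library against 1 (20.1% of all genes), 11 for both agents against control (22.8%) and 12 for both against TMAO (29.7%). Averaged over TMAO, the Abcd2, Crot and Etfdh changes without them were -2.80, -0.34 and 0.35. In the deposited TPM, scaled over all transcripts, Hadh was at 72.1 to 86.1 with and 91.8 to 95.6 without TNF-α, and Acaa2 at 38.2 to 46.3 and 47.0 to 48.2, so that neither overlapped there.

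**Figure D4:**
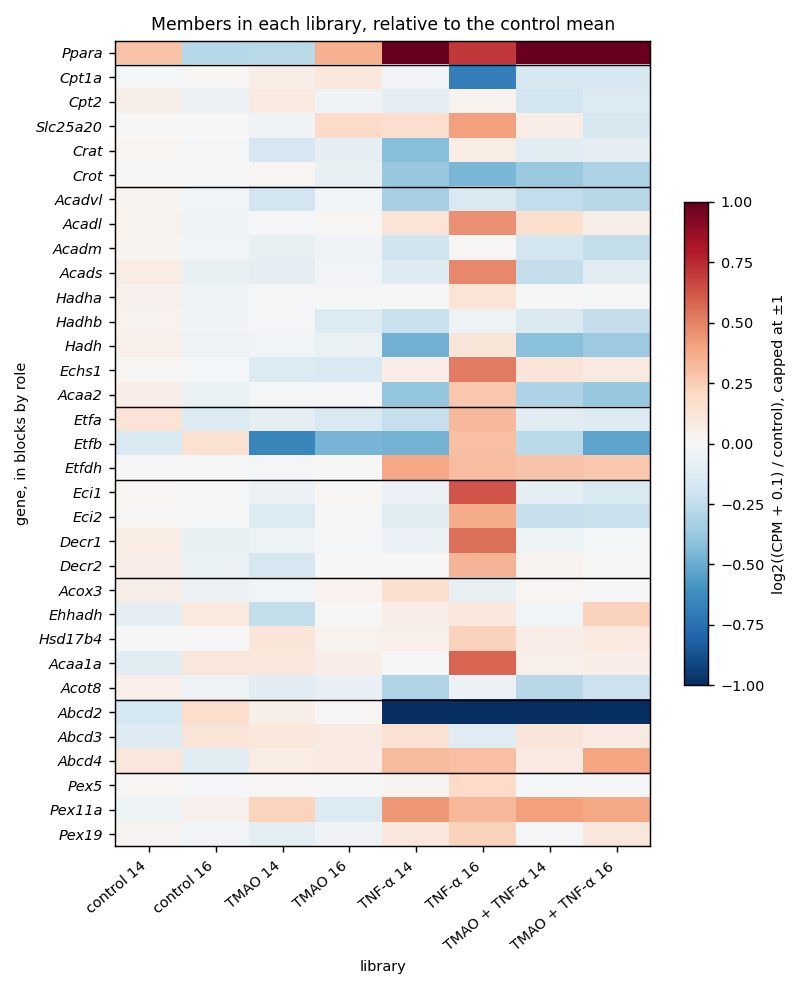
Log2 of CPM plus 0.1 relative to the control mean for the 33 members (rows, in blocks by role) in the 8 libraries (columns), with the colour scale capped at ±1. TNF-α 16 is the reddest column in the blocks of mitochondrial and auxiliary enzymes, highest in 18 of 33 members, while Abcd2 is deep blue in all 4 libraries with TNF-α.

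The 4 auxiliary enzymes that reposition or reduce double bonds of unsaturated chains (Eci1, Eci2, Decr1, Decr2) gave no call, and all 4 were highest in TNF-α 16. Decr2, the peroxisomal dienoyl-CoA reductase, had the smallest p. It was at 15.5 and 14.2 CPM in control, 13.2 and 14.8 with TMAO, 14.8 and 18.8 with TNF-α, and 15.2 and 14.9 with both. These values overlap, with a log2 change of 0.14 (95% interval -0.11 to 0.39), which was 0.05 without TNF-α 16. The mitochondrial isomerase Eci1 reached 42.8 CPM in TNF-α 16, and the other libraries lay between 24.9 and 28.1. Its change of 0.11 turned to -0.08 without TNF-α 16, and that of Decr1 from 0.14 to -0.03.

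The 5 peroxisomal beta-oxidation genes also gave no call, with log2 changes from -0.17 to 0.16. Acot8, a peroxisomal thioesterase that releases chain-shortened acids, was at 15.7 and 14.6 CPM in control, 14.1 and 14.4 with TMAO, 12.3 and 14.5 with TNF-α, and 12.5 and 13.0 with both. TNF-α 16 lay among the libraries without TNF-α and the other 3 below them, for a log2 change of -0.17 (95% interval -0.38 to 0.04). Without TNF-α 16 it was -0.23 and was called lower. Acox3, an oxidase of branched chains, and Hsd17b4 changed by 0.03 (-0.20 to 0.25) and 0.07 (-0.10 to 0.24). Ehhadh had 0.16 (-0.16 to 0.47) and the thiolase Acaa1a 0.15 (-0.18 to 0.47), which was -0.01 without TNF-α 16. The Acaa1a value is uncertain, since the near-identical paralog Acaa1b can share its reads, and such sharing was not tested.

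Among the 3 peroxins, Pex11a, which promotes the elongation and division of peroxisomes, was at 6.72 and 7.10 CPM in control, 8.09 and 6.26 with TMAO, 9.36 and 8.72 with TNF-α, and 9.20 and 9.08 with both. All 4 libraries with TNF-α were higher than the 4 without, and the change of 0.37 (95% interval 0.11 to 0.63) did not pass (edgeR's adjusted p = 0.0962). The change was 0.39 without TNF-α 16 and 0.35 without TNF-α 14. Both fits called it higher, but they left the TNF-α group 1 library and so no spread of its own. In TPM the groups overlapped. Pex5, the import receptor for matrix proteins, and Pex19, the carrier of membrane proteins, had 0.05 (-0.12 to 0.21) and 0.14 (-0.03 to 0.31).

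Over all members, 8 of 33 (24.2%) had no overlap in CPM between the 4 libraries with TNF-α and the 4 without, where 20% of all genes tested had none. Of these, 5 were higher (Ppara, Acadl, Echs1, Etfdh, Pex11a; 9.81% of all genes) and 3 lower (Cpt1a, Crot, Abcd2; 10.2%). In TPM 12 of 33 had no overlap, beside 16.2% of the 15497 tested genes that the TPM table lists once by symbol. Of these 12, 4 were higher (Ppara, Acadl, Echs1, Decr1) and 8 lower (Crot, Acadvl, Acadm, Hadh, Acaa2, Eci2, Acot8, Abcd2). The share of all genes in each direction was not computed for TPM, so this split has nothing to be set against. In both tables, in the same direction, 5 members had none (Ppara, Acadl, Echs1, Crot and Abcd2), beside 11.6% of those genes. Both tables come from the same reads.

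TMAO gave no call among the members. In edgeR 0 of 33 passed for TMAO against control (0.0% of all genes tested), for TMAO averaged over TNF-α (0.0%) and for both agents against TNF-α (0.0%). In each of these 3 comparisons 0 members had an unadjusted p under 0.05 in edgeR, and DESeq2 called 0. For TMAO averaged over TNF-α, 26 of 33 members had a negative log2 change, with a median of -0.078 (-0.0062 over all genes). Without TNF-α 16 the median was -0.021, with 24 negative. Against control alone the median was -0.026, and 31 of 33 members had an interval within 1.5-fold, the exceptions being Ppara and Etfb at their low counts. For averaged TMAO 30 of 33 had such an interval, but for both agents against TNF-α only 20. A change with TMAO in cells with TNF-α is thus bounded less closely. Abcd2 had 0.03 (-0.45 to 0.50) and Cpt1a 0.09 (-0.38 to 0.55) with TMAO against control. Without TNF-α 14, which left TNF-α 16 as the only library of its group, 14 members were called for averaged TMAO (12 of them lower; 44.8% of all genes called) and 15 for both agents against TNF-α (14 lower; 49.4%).

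The interaction, the difference between the TMAO effect with TNF-α and without it, gave 0 calls among 33 members (0.0% of all genes) in edgeR and 0 in DESeq2, and 0 members had an unadjusted p under 0.05 in edgeR. For Abcd2 the interaction was -0.41 (95% interval -1.18 to 0.36), and for Crot 0.10 (-0.23 to 0.44). Intervals were within 2-fold for 29 of 33 members and within 1.5-fold for 16. Without TNF-α 14, 10 members were called for the interaction (9 lower; 35.5% of all genes).

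Other genes of the pathway were taken from 7 fixed lists. Of 14 genes of fatty acid uptake and activation, 10 were tested, 2 fell and 1 rose with TNF-α, beside the 9.2% of all genes. Those that fell encode acyl-CoA synthetases, which activate fatty acids before oxidation or storage. Acsl1 was at 192 to 200 CPM without TNF-α and 94.6 to 117 with it (log2 change -0.83 ± 0.08 (SE); edgeR's adjusted p = 0.00118), and Acsl3 at 137 to 138 and 88.7 to 95 (-0.59 ± 0.06; edgeR's adjusted p = 0.00174). The groups were far apart in both. The transporter Slc27a1 rose from 7.39 to 9.17 CPM to 10.3 to 14.1 (0.49). Of the 10 PPAR receptors and coregulators 1 rose, Ppard, the gene of the related receptor PPARδ, from 28.3 to 31.7 CPM without to 43.0 to 44.3 with TNF-α (0.54 ± 0.07 (SE); edgeR's adjusted p = 0.00448). Of 15 PPARα targets outside beta-oxidation 10 were tested and 1 rose, Angptl4, an inhibitor of lipoprotein lipase, from 23.8 to 27.2 CPM without to 33.3 to 51.0 with TNF-α (0.66). Cyp4a10, Cyp4a14 and Fgf21 had 0 counts in every library.

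Of 29 other peroxisomal enzymes and transporters, 22 were tested, 2 fell and 1 rose. The shares over all genes were 3.86% lower and 5.35% higher. In this list DESeq2 called 3 lower and 1 higher. Amacr, the racemase of branched-chain acyl-CoA, fell from 60.1 to 66.9 CPM without TNF-α to 33.9 to 46.6 with it (-0.77). The 46.6 was TNF-α 16. Hao1, a peroxisomal hydroxy acid oxidase, rose from 5.47 to 6.45 CPM to 9.33 to 14.1 (0.91). The 14.1 was TNF-α 16, and the other libraries with TNF-α were at 9.33 to 10.7. Pipox, an oxidase of pipecolic acid and sarcosine, was called lower on 2 to 7 counts a library with TNF-α and 13 to 25 without. None of the 13 other peroxins passed, the smallest p being that of Pex26 (-0.28; edgeR's adjusted p = 0.0925; 1 of 13 at an unadjusted p under 0.05), and DESeq2 called 0. None of the 17 other mitochondrial enzymes of fatty acids passed either, with Pcca, a subunit of propionyl-CoA carboxylase, nearest (-0.46; edgeR's adjusted p = 0.0913; 3 of 17 at an unadjusted p under 0.05; DESeq2 called 0). Of 7 ketone body genes 6 were tested and 0 passed (3 at an unadjusted p under 0.05; DESeq2 called 0), and Bdh2 had the smallest p (0.69; edgeR's adjusted p = 0.106).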

How the data were processed

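Bulk mRNA libraries of Hepa1-6 cells were compared in 4 groups of 2. The authors deposited a table of whole-number read counts per Ensembl gene and a table of TPM per symbol. The submitters' processing notes name build mm9; no counter or use of strand is given in the sources used here. Gene symbols of the counts were taken from GENCODE M21 by Ensembl identifier (54409 of 54446 matched). Genes were filtered with filterByExpr, scaled by TMM and tested with edgeR 4.0.16's quasi-likelihood test on 4 group means (4 residual degrees of freedom), with Benjamini-Hochberg adjustment over 15613 genes at 0.05 and no fold limit. CPM were computed on TMM-scaled totals of the tested genes. The deposited TPM were used for levels only, without a test. Totals were 24736746 to 30488605 counts, so 3 counts, the limit that a count of 0 allows, are 0.0993 to 0.124 CPM.

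Values in every library are given for Ppara, Cpt1a, called members and, in roles with none, the member with the smallest p. Hadh, Acaa2, Acads, Eci1 and the other members described were chosen after their values were seen. From each of the 7 pathway lists, called genes (up to 4) or the 1 with the smallest p were named. The members and lists were chosen with earlier results of these data known. Alternatives were DESeq2 1.42.0, other scaling and filters, a replicate block, fits of only the groups compared and fits without libraries. The script was tested on simulated data.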

Additional observations from a re-analysis of the deposited data

How the results depend on the processing

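For TNF-α averaged over TMAO, Abcd2 passed in each of 15 alternatives (-3.01 to -2.73 on the log2 scale). None of the 9 members with values in every library changed direction. Most of these were chosen by their calls or p-values in the same data, which favours a stable sign. Among the other members, the sign of 7 turned without TNF-α 16 and that of 4 without TNF-α 14. The number of members called for TNF-α averaged over TMAO was 3, 1 with the replicate block and 15 without TNF-α 16 and control 14, and 1 to 14 when 1 library was left out (13 without TNF-α 16, 14 without TNF-α 14, 1 without any other). For TNF-α against control it was 1, 2 in DESeq2, 9 without those 2 libraries (1 library against 1), 0 with only the groups compared and 1 to 18 with 1 library left out. For both agents against control it was 1, then 11, 7 and 1 to 9 (without those 2 libraries, with only the groups compared, and with 1 library left out), and for both against TMAO 1, then 12, 12 and 1 to 7. With 1 library left out, averaged TMAO gave 0 to 14, both agents against TNF-α 0 to 15, the interaction 0 to 10 and TMAO against control 0. A group left with 1 library is assumed to vary like the others. These numbers are not a measure of the members alone, since the calls over all genes also changed between fits. With only the groups compared, 2373 of 14936 genes were called for both agents against control. For both against TMAO 4775 of 14950 were called, and for TNF-α against control 1 of 14876.

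The replicate numbers did not pair the libraries: same-numbered libraries had correlated deviations of -0.636 to 0.005 over 12368 genes, and the labels do not say what the numbers mark. With the replicate block Crot (adjusted p = 0.058), Etfdh (0.0693) and Ppara (0.115) missed the threshold in edgeR. Depth limits Ppara, with 7 to 30 counts a library; the cause of the low Etfb counts was not tested.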
